A study of Mus musculus with 12 samples.

Results

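The experiment asked of the deposited counts is whether macrophages given whole tumor material respond as the sum of what myelin and myelin-free tumor material each do on their own. It uses all 12 libraries of the table, 4 groups of 3, and every gene that passed a low-count filter by group: 13414 of the 24728 genes in the table. The cells are mouse bone-marrow derived macrophages (macrophages grown from marrow rather than taken from a tumor), sorted as dTomato+ cells after an ex vivo assay with dissociated brain tumor. The groups are Full Tumor, Tumor without Myelin, Myelin Alone and Control, and each holds 1 library of the mn numbers 957, 958 and 016. The labels name neither strain, age, exposure time, the tumor model behind these libraries, what the Control cells were given, nor what an mn number stands for. Whether the libraries of a group stem from different animals is not stated, so each p-value reflects the spread between these particular samples, which could be technical.

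Myelin is rich in cholesterol, which a macrophage cannot break down. Engulfed sterol is stored as ester in lipid droplets or exported through the transporters Abca1 and Abcg1 to lipoprotein particles, and sterol derivatives activate the nuclear receptor LXR, which drives the genes of export. High sterol also holds the transcription factor SREBP2 in the endoplasmic reticulum, which lowers genes of cholesterol synthesis and uptake. Tumor tissue can bring further stimuli, such as dying cells, cytokines and nucleic acids, that act on macrophages through other receptors.

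The design crosses myelin (present or absent) with tumor material (present or absent). For each gene, the interaction takes the myelin effect in the presence of tumor material, Full Tumor less Tumor without Myelin, and subtracts the myelin effect in its absence, Myelin Alone less Control, in log2 units. An interaction of 0 means that the log2 effects add. A negative one means that Full Tumor lay below the sum of the separate effects, a positive one that it lay above. It was fitted with edgeR's quasi-likelihood test with the mn number as a block. The interaction is exactly as large when read as the effect of tumor material with myelin minus its effect without.

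Library totals ran from 17071673 to 21689624 counts. The macrophage lysozyme gene Lyz2 was at 6556 CPM or more in every library. Of the tumor and progenitor list, Sox2 was at most 0.189 CPM, while Nes reached 7.80, Cspg4 19.5 and Pdgfb 122 CPM. The list summed to 43.4 to 101 CPM in Full Tumor, 47.7 to 121 in Tumor without Myelin, 49.3 to 143 in Myelin Alone and 37.1 to 140 in Control. Aldoc, of the astrocyte and neuron list, reached 131 CPM in Control. The source of these transcripts was not tested. Summed neutrophil marker levels were 131 to 170 CPM (counts scaled by library size) in Full Tumor, 119 to 175 in Tumor without Myelin, 68.8 to 296 in Myelin Alone and 140 to 532 in Control. The granule enzyme gene Mpo had 3.88 CPM in Full Tumor, 10.6 in Tumor without Myelin, 27.2 in Myelin Alone and 111 in Control of number 016, and at most 1.10 CPM in every library of the other numbers. The part of neutrophils in the results was not tested.

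No gene departed from additivity at an adjusted p under 0.05 (0 of 13414 genes, 0%; smallest adjusted p 1.00, edgeR quasi-likelihood test). At an unadjusted p under 0.05 there were 393 genes (2.93%), of which 156 lay above the sum (1.16%) and 237 below it (1.77%). The share of 2.93% is less than the threshold of 0.05 would give if no gene departed from additivity. The smallest unadjusted p was 0.000314. DESeq2 and limma-voom also called 0 genes, with 485 and 470 genes at an unadjusted p under 0.05. The absence of calls does not show that the responses add, so the width of each gene's interval is given next.

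Over all tested genes the median interaction was −0.00279, the quartiles were −0.22 and 0.20, and the median standard error was 0.33. The 95% interval lay wholly within 1 log2 unit of additivity, less than a 2-fold departure, for 6875 genes (51.3%), and within 0.5 for 2006 (15%). The share differed with level. Among the 2275 genes with at least 100 CPM in a group, 97.5% had an interval within 1 log2 unit and the median absolute interaction was 0.0873. Among the 8571 genes with at least 10 CPM in a group the share was 78.8%. Among the 4843 genes below 10 CPM in every group it was 2.52%, so for most of these genes the intervals do not exclude a 2-fold departure.

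Read within each number, the interaction of the genes with at least 10 CPM did not repeat: its Spearman correlation between numbers across these 8571 genes was −0.138 to 0.0267 over 3 pairs of numbers. The pooled myelin effect (the mean of the effects with and without tumor material) gave 0.136 to 0.233, and the pooled tumor effect (the mean of the effects with and without myelin) 0.0583 to 0.262. These are descriptions across genes, which are not independent replicates, and the 4 libraries of a number share their number. The same sign in all 3 numbers was found for 2901 of the 13414 genes (21.6%).

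The effects that are compared share no library. Across the 8571 genes with at least 10 CPM, the effect of myelin with tumor material correlated with its effect without at a Pearson r of 0.274 (Spearman 0.228). For the effect of tumor material with and without myelin the r was 0.612 (Spearman 0.417). Over all 13414 genes these values were 0.0554 and 0.201 (Pearson). Within numbers 957, 958 and 016, across the 8571 genes, the Spearman values for myelin were −0.111, 0.121 and 0.0359. For tumor material they were −0.0236, 0.249 and 0.441.

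**Figure D1:**
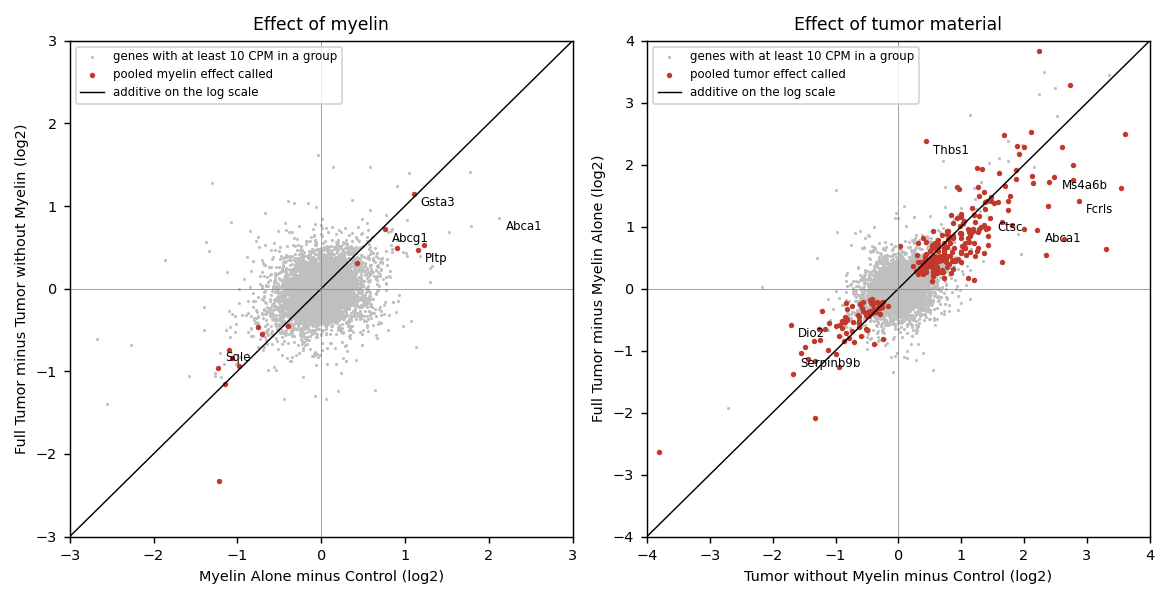
Log2 effect of myelin with tumor material against its effect without (left), and of tumor material with myelin against its effect without (right), 1 point for each gene with at least 10 CPM in a group (grey) or called for the pooled effect (red). The line marks additive effects, 1 of 8572 genes on the left and 11 of 8591 on the right lie outside the axes, and 156 of the 218 genes called higher for tumor material have a negative interaction, below the line (median effect 0.68 with myelin and 0.87 without).

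With tumor material, myelin changed 0 genes at an adjusted p under 0.05 (0%; 520 genes, 3.88%, at an unadjusted p under 0.05), against 5 without tumor material (0.0373%). With myelin, tumor material changed 15 genes (0.112%), against 100 without (0.745%). These counts do not show that the effects differ, since the difference itself is the interaction, with 0 calls. Pooling over the other factor gave 15 genes for myelin (0.112%), 6 higher (0.0447%) and 9 lower (0.0671%), and 302 genes for tumor material (2.25%), 218 higher (1.63%) and 84 lower (0.626%). Gsta3, Pltp, Cd72 and Stra6l were in both lists. These counts rest on the block and on the numbers: without the block they were 0 and 10, without number 957 they were 0 and 29, without 958 they were 0 and 30, and without 016 they were 26 and 259. The pooled effects are computed from other combinations of the group means than the interaction is, which is why the genes below were chosen by them.

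For genes called for a pooled effect, the interaction was given the sign of that effect, so that a negative value means a joint response smaller than the sum. Over the 302 tumor genes its median was −0.13, with 221 genes below 0 (73.2%; 52.9% over all tested genes, median −0.02). Their median tumor effect was 0.61 with myelin and 0.79 without. Over the 15 myelin genes the median was −0.15, with 11 below 0 (73.3%; 52.3% over all tested genes, median −0.02). Their median myelin effect was 0.72 with tumor material and 1.06 without. Within the numbers 957, 958 and 016 the medians were −0.12, −0.09 and −0.20 for the tumor genes and −0.11, −0.17 and −0.14 for the myelin genes. Of the tumor genes 34 had an interval that excluded 0 (11.3%, against 2.93% of all tested genes). An interval within 1 log2 unit was found for 195 of them (64.6%, against 51.3% of all tested genes).

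Choosing genes by the pooled effect leaves the sign of the interaction free where the groups vary alike, which need not hold here. The genes were therefore also chosen, with their sign, in 2 numbers and measured in the number left out, a check added after the data were seen. The medians for the top 302 tumor genes were then −0.26 in number 957, −0.04 in 958 and −0.10 in 016, against −0.11, 0.02 and 0.00 over all tested genes. For the top 15 myelin genes they were 0.02, −0.28 and −0.14, against 0.04, −0.01 and 0.00. The share of the chosen tumor genes below 0 was 73.8%, 53.0% and 58.3% in the 3 numbers, against 58.5%, 47.8% and 49.6% of all tested genes. Of the chosen myelin genes 7, 13 and 9 of 15 were below 0, against 46.6%, 51.2% and 49.5% of all tested genes. In number 957 the myelin genes were thus split as all genes were, with a median above 0, and no test was made of these differences.

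**Figure D2:**
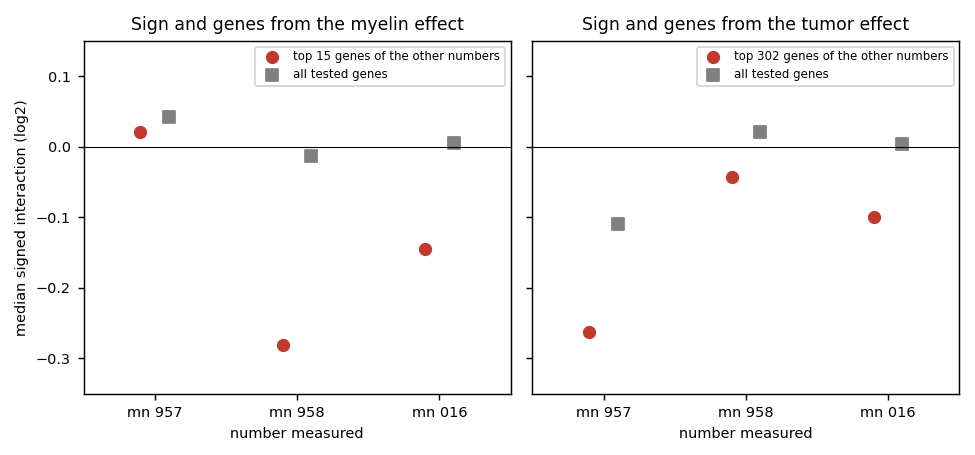
Median signed interaction (log2) in each mn number, for genes and signs chosen in the other numbers (red) and for all tested genes (grey); left myelin, right tumor material. Each red point lies below the grey one beside it, and in 957 the myelin point is above 0 (0.02).

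Genes of cholesterol synthesis and uptake made up 6 of the 15 myelin calls. Of the 24 tested members of the list, 6 were lower for the pooled myelin effect and 0 were higher. Of all tested genes 0.0671% were lower and 0.0447% higher. Sqle, squalene epoxidase, had 58.7, 43.0 and 67.0 CPM in Full Tumor (numbers 957, 958 and 016, the order used throughout), 126, 81.4 and 119 in Tumor without Myelin, 67.2, 54.3 and 75.5 in Myelin Alone, and 142, 110 and 223 in Control. All 6 libraries with myelin lay below all 6 without. Its log2 effect of myelin was −0.96 ± 0.14 (SE) with tumor material and −1.23 ± 0.14 without, and the pooled effect was −1.09 ± 0.10 (adjusted p = 0.00167, edgeR). The interaction was 0.27 ± 0.19 (95% interval −0.14 to 0.69), with 0.72 in number 016 and −0.02 and 0.10 in the others.

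Cyp51, lanosterol demethylase, had 44.7, 47.6 and 46.1 CPM in Full Tumor, 96.3, 73.6 and 80.1 in Tumor without Myelin, 55.0, 41.6 and 44.8 in Myelin Alone, and 103, 78.5 and 113 in Control. Again all 6 libraries with myelin lay below all 6 without. Its myelin effect was −0.84 ± 0.14 with tumor material and −1.06 ± 0.14 without (pooled adjusted p = 0.00377, edgeR), and its interaction was 0.22 ± 0.20. The joint level expected from the other groups, Tumor without Myelin times Myelin Alone over Control within each number, averaged 40.6 CPM, and the observed mean in Full Tumor was 46.1.

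Fdft1, squalene synthase, and Insig1, the protein that retains SREBP2 and its escort, had interactions of 0.05 ± 0.31 and 0.35 ± 0.25. Hmgcs1, which makes the precursor of mevalonate, was not called for the pooled effect (−0.69 ± 0.15, adjusted p = 0.175, edgeR), and its interaction was 0.24 ± 0.30.

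Over the 24 members the median interaction was 0.16, with 20 above 0 (49.6% of all tested genes were). The median myelin effect was −0.47 with tumor material and −0.69 without. By number the list median was −0.03, 0.27 and 0.31.

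This list held 6 of the 9 genes called lower for myelin. Of the 3 genes taken from it here, Cyp51 and Insig1 were among these 6 and Hmgcs1 was not. Promoters are shown for these 3, which have an entry in the RefSeq table. They are RefSeq sequences (GRCm38.p6), from 250 bases before to 50 after the start of the gene: Cyp51 at chr5:4104648-4104947 on the minus strand, Hmgcs1 at chr13:119690101-119690400 and Insig1 at chr5:28071162-28071461, both on the plus strand. Capitals mark TCACNCCAC, a sterol element to which SREBP proteins bind, and CCAAT, the box bound by NF-Y, each searched on both strands (the second reads ATTGG on the other strand).
Cyp51: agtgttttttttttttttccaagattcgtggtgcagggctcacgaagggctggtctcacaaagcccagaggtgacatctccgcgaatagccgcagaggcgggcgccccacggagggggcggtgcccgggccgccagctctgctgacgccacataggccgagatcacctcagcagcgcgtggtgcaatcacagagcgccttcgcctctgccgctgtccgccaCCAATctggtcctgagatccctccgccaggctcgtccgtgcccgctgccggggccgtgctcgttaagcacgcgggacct
Hmgcs1: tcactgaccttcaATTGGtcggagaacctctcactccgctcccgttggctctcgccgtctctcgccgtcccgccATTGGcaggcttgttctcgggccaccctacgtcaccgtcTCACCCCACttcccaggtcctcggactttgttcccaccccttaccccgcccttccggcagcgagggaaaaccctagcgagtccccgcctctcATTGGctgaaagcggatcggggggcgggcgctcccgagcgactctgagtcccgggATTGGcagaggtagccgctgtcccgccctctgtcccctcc
Insig1: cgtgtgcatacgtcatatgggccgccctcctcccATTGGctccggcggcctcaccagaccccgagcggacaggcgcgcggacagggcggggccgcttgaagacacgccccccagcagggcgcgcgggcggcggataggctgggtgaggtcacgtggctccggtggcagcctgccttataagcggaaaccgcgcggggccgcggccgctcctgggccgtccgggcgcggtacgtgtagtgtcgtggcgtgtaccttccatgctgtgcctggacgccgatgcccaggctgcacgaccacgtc
Cyp51 and Insig1 held 1 CCAAT box each and Hmgcs1 held 4, and a match to TCACNCCAC was in Hmgcs1 alone of the 3. Of the 25 genes in the list 17 matched the promoter table, with 20 promoters. Of these promoters 16 held a CCAAT box and 1 held TCACNCCAC. Of all 32851 promoters of the same length, 37.4% and 1.24% did. Only these letters were searched, so a sterol element with other letters would not be marked. A match of letters is no evidence of binding, and the lack of a match does not show that a sterol element is absent.

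Genes of cholesterol export, which are LXR targets, mostly had an interaction below 0. By number the median of their list was −0.10, −0.37 and −0.26. Abcg1 was near additive: 1152, 1170 and 764 CPM in Full Tumor, 712, 618 and 530 in Tumor without Myelin, 1041, 1061 and 756 in Myelin Alone, and 718, 497 and 474 in Control. Its myelin effect was 0.72 ± 0.11 with tumor material and 0.76 ± 0.11 without (pooled adjusted p = 0.00377, edgeR), with an interaction of −0.04 ± 0.16 (95% interval −0.39 to 0.30). The tumor effect was 0.10 ± 0.11 with myelin and 0.15 ± 0.11 without.

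Pltp, the phospholipid transfer protein, was called higher for both pooled effects, with an estimate below their sum. It had 677, 787 and 210 CPM in Full Tumor, 412, 608 and 164 in Tumor without Myelin, 510, 475 and 153 in Myelin Alone, and 236, 201 and 70.4 in Control. Within every number Full Tumor was the highest group and Control the lowest, while the groups overlapped across numbers because 016 was low throughout. The myelin effect was 0.47 ± 0.13 with tumor material and 1.15 ± 0.13 without, and the tumor effect was 0.53 ± 0.13 with myelin and 1.21 ± 0.13 without (pooled adjusted p = 0.00526 and 0.000961, edgeR). The interaction was −0.68 ± 0.18 (95% interval −1.09 to −0.28, unadjusted p = 0.00329, not called) and −0.39, −0.87 and −0.76 by number. The log-scale sum predicted 893 CPM in Full Tumor (888, 1437 and 355 by number). The linear sum (Tumor without Myelin plus Myelin Alone minus Control) predicted 605, against 558 observed.

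Abca1, the transporter that loads cholesterol onto apolipoproteins, had 184, 227 and 132 CPM in Full Tumor, 91.4, 137 and 73.1 in Tumor without Myelin, 119, 144 and 47.5 in Myelin Alone, and 35.8, 39.8 and 3.73 in Control. Its tumor effect was 0.95 ± 0.39 with myelin and 2.21 ± 0.42 without (pooled adjusted p = 0.0152, edgeR), and its myelin effect was 0.86 ± 0.39 with tumor material and 2.12 ± 0.41 without (pooled adjusted p = 0.103). The interaction was −1.26 ± 0.56 (unadjusted p = 0.0436, not called), and −0.70, −1.11 and −2.52 by number. Without the Control library of number 016, which was low at 3.73 CPM, it was −0.76. On the linear scale the observed mean of 181 CPM was near the expected 178, against 516 expected on the log scale (299, 491 and 759 by number), so its mean lay below the product and near the sum.

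Apoe, an apolipoprotein that macrophages secrete, had an interaction of −0.40 ± 0.18 (unadjusted p = 0.0424, not called) on a pooled tumor effect of 0.61 ± 0.09 (adjusted p = 0.00506, edgeR). Plin2, which coats lipid droplets, was close to additive: 3030, 2723 and 3437 CPM in Full Tumor, 2509, 2200 and 2872 in Tumor without Myelin, 2934, 2315 and 2916 in Myelin Alone and 2176, 1876 and 2617 in Control, with an interaction of −0.02 ± 0.10. Over the 16 tested genes of the export list the median interaction was −0.20, with 3 above 0 and 13 below (50.4% of all tested genes were below). The median myelin effect was 0.21 with tumor material and 0.35 without. For the pooled effects, myelin called 2 higher and 0 lower (0.0447% and 0.0671% of all tested genes). Tumor material called 4 higher and 0 lower (1.63% and 0.626% of all tested genes).

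**Figure D3:**
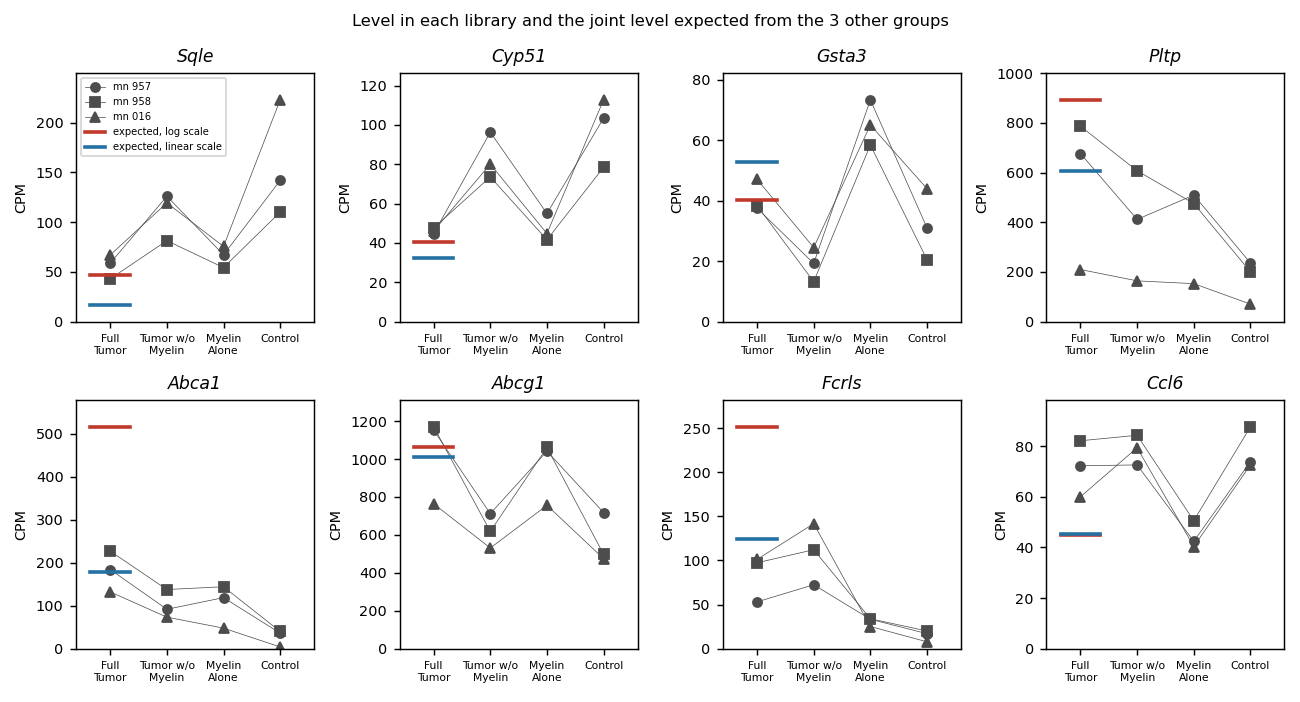
CPM in each library of 8 genes, by group, with lines joining the libraries of an mn number; red and blue bars mark the mean joint level expected in Full Tumor from the 3 other groups on the log and the linear scale. Gsta3 and Abcg1 in Full Tumor straddle the red bar, while Pltp, Abca1 and Fcrls lie below it and Ccl6 above both.

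Other genes called for the pooled myelin effect covered a range. Gsta3, a glutathione transferase, was called higher for myelin and lower for tumor material. It had 37.5, 38.3 and 47.0 CPM in Full Tumor, 19.2, 13.2 and 24.5 in Tumor without Myelin, 73.3, 58.4 and 65.0 in Myelin Alone, and 31.0, 20.5 and 44.0 in Control. The myelin effect was 1.15 ± 0.19 with tumor material and 1.10 ± 0.19 without, the tumor effect −0.69 ± 0.19 with myelin and −0.73 ± 0.19 without, and the interaction 0.05 ± 0.27. Mgst1, a microsomal glutathione transferase (−0.11 ± 0.11), Cd72, a lectin-like receptor (−0.06 ± 0.13), and Stap1, a signalling adaptor (0.15 ± 0.19), had intervals that included 0. Dok2, an adaptor that restrains signalling, had a myelin effect of −0.46 ± 0.10 with tumor material and −0.76 ± 0.10 without, with an interaction of 0.29 ± 0.14. Cd24a, a surface glycoprotein, had an interaction of −0.70 ± 0.28 (unadjusted p = 0.0303, not called). Of the 15 intervals 12 lay within 1 log2 unit (80%, against 51.3% of all tested genes). Of the 15, 3 excluded 0 (20%, against 2.93% of all tested genes), among them those of Pltp and Cd24a.

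Among the genes with the smallest p for the pooled tumor effect, Ms4a6b, a membrane protein of the Ms4a family, had 133, 172 and 59.4 CPM in Full Tumor, 130, 212 and 75.3 in Tumor without Myelin, 31.4, 41.3 and 24.5 in Myelin Alone, and 21.3, 38.6 and 14.4 in Control. Every library with tumor material lay above every library without. The tumor effect was 1.81 ± 0.17 with myelin and 2.48 ± 0.17 without (pooled adjusted p = 1.25e-05, edgeR), and the interaction was −0.68 ± 0.23 (unadjusted p = 0.0136, not called). Its family member Ms4a6c had −0.58 ± 0.19. Tgm2, transglutaminase 2 (−0.21 ± 0.15), Ctsc, the protease cathepsin C (−0.32 ± 0.21), and Aif1, an actin-binding macrophage protein (−0.48 ± 0.25), had negative estimates with intervals that included 0, and Dck, deoxycytidine kinase, had a positive one (0.20 ± 0.16). Of genes lowered by tumor material, Serpinb9b, a serine protease inhibitor, had an interaction of 0.30 ± 0.26 and Nqo1, an oxidative-stress reductase, 0.17 ± 0.32.

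Fcrls, an Fc receptor-like gene associated with microglia, had 53.0, 97.4 and 101 CPM in Full Tumor, 72.5, 112 and 142 in Tumor without Myelin, 33.3, 33.8 and 25.02 in Myelin Alone, and 16.9, 19.9 and 7.65 in Control. The tumor effect was 1.42 ± 0.33 with myelin and 2.87 ± 0.35 without (pooled adjusted p = 0.00125, edgeR). The myelin effect was −0.39 ± 0.32 with tumor material and 1.07 ± 0.34 without. The interaction was −1.45 ± 0.47 (unadjusted p = 0.00922, not called), with −1.38, −0.94 and −2.07 by number. Fcrls averaged 83.9 CPM in Full Tumor against 252 expected on the log scale and 125 on the linear one. The log-scale expectation was 140, 187 and 428 CPM by number, highest in 016, where Control was at 7.65 CPM. Without number 016 it averaged 164 CPM against 75.2 observed. Over the 13 tested microglia-associated genes the median interaction was −0.36, with 2 above 0 and 11 below (49.6% and 50.4% of all tested genes). Of these 13 genes 8 were higher for the pooled tumor effect and 0 lower, against 1.63% and 0.626% of all tested genes. Their median tumor effect was 0.70 with myelin and 1.04 without. In bulk libraries fewer cells of a type and less RNA per cell cannot be told apart.

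Il18bp, the secreted protein that blocks interleukin 18, had 102, 193 and 31.5 CPM in Full Tumor, 54.3, 101 and 25.3 in Tumor without Myelin, 34.9, 53.3 and 8.32 in Myelin Alone and 7.19, 6.86 and 6.87 in Control. The expected joint level was 326 CPM on the log scale and 85.5 on the linear scale, against a mean of 109 observed, and the interaction was −1.03 ± 0.54. Number 958 carried most of the log-scale expectation, which was 241, 706 and 30.1 CPM by number, with interactions of −1.23, −1.86 and 0.06. Without 958 the expectation averaged 136 CPM against 67.0 observed. Of the 302 tumor genes, 232 (76.8%) fell short of the log-scale expectation in the direction of their effect and 240 (79.5%) of the linear one, against 55.0% and 55.2% of the 8571 genes with at least 10 CPM in a group, taken in the direction of their pooled tumor effect. Of the 15 myelin genes 12 fell short of each expectation, and 11 of both.

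Among genes with at least 10 CPM in a group and 1 sign in the 3 numbers, those with the smallest p for the interaction, none of them called, were led by Ccl6, a chemokine of macrophages. It had 72.3, 82.2 and 60.1 CPM in Full Tumor, 72.7, 84.4 and 79.5 in Tumor without Myelin, 42.4, 50.6 and 40.4 in Myelin Alone, and 73.9, 87.8 and 72.7 in Control. Only Myelin Alone stood apart, below all 9 other libraries. The myelin effect was −0.15 ± 0.11 with tumor material and −0.81 ± 0.11 without, and the interaction was 0.66 ± 0.16 (unadjusted p = 0.00134, adjusted p 1.00, edgeR), positive in all 3 numbers. Wdr11, a trafficking protein with WD repeats, was also lowest in Myelin Alone within every number, though the groups overlapped across numbers. It had 76.3 ± 16.5 CPM in Full Tumor, 72.3 ± 14.3 in Tumor without Myelin, 52.4 ± 13.98 in Myelin Alone and 76.7 ± 17.1 in Control (SD, n = 3 each). Its interaction was 0.63 ± 0.15. Mmp13, a collagenase, had 0.97 ± 0.26, Dnajc16, a chaperone-like protein, 1.37 ± 0.36, Fnbp1l, a membrane-bending protein, 1.33 ± 0.35, and Nedd4l, a ubiquitin ligase, 0.76 ± 0.21.

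On the other side, Ctsh, the protease cathepsin H, had 809, 842 and 563 CPM in Full Tumor, 785, 882 and 599 in Tumor without Myelin, 778, 759 and 494 in Myelin Alone, and 555, 600 and 409 in Control. Here Control was the lowest group within every number, and the other groups lay close together. The myelin effect was −0.04 ± 0.08 with tumor material and 0.37 ± 0.08 without, with an interaction of −0.41 ± 0.11 (unadjusted p = 0.00297, not called). Nsmaf, an adaptor in sphingomyelinase signalling, had −1.30 ± 0.32, Syap1, a synapse-associated protein, −0.71 ± 0.20, Marchf8, a ubiquitin ligase, −0.62 ± 0.18, and Clptm1l, a membrane protein, −0.46 ± 0.13. Pltp, described above, completes the 6. These 12 genes were picked for their small p, so their sizes are a description.

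**Figure D4:**
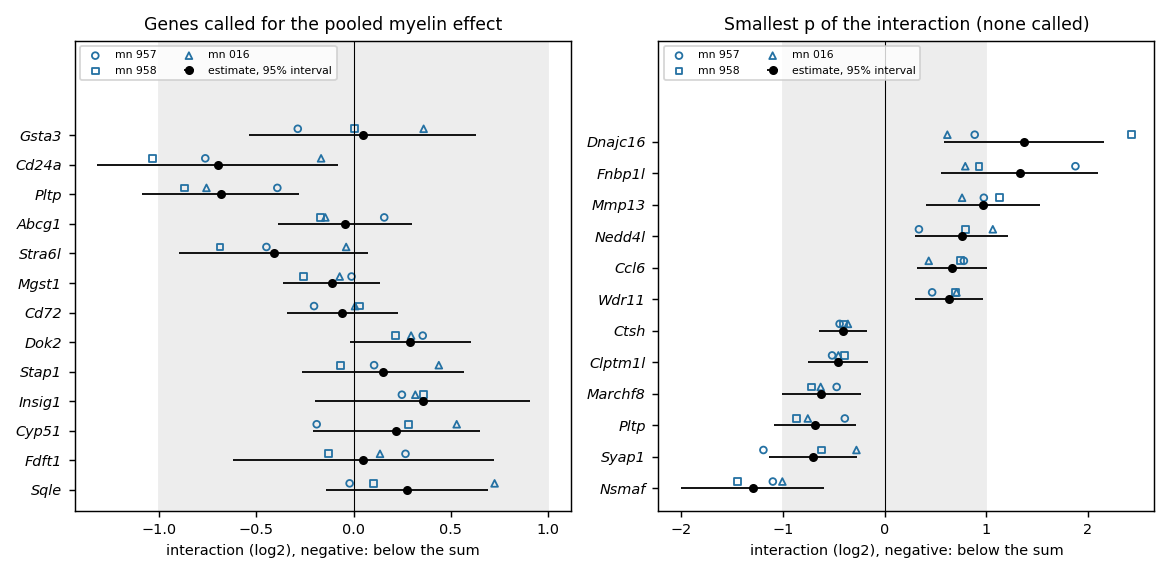
Fitted interaction (log2, black, with its 95% interval) and its value within each mn number (open symbols) for 13 of the 15 genes called for the pooled myelin effect (left) and the 12 with the smallest interaction p among genes with at least 10 CPM in a group and 1 sign in the 3 numbers (right); the grey band is within 1 log2 unit. On the left 11 of 13 intervals lie within the band, against 51.3% of all tested genes. On the right the sign is the same in all 3 numbers because genes were chosen so.

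Of the 21 process lists, 18 had a median interaction within 0.25 of 0. The lists further away were class II presentation (−0.28; 0 of 8 genes above 0), interferon response (0.31; 22 of 30 above) and chemokines (0.43; 10 of 14 above). Of all tested genes 49.6% were above 0. By number the class II median was −0.30, −0.37 and −0.33. The chemokine median was 0.71, 0.54 and −0.07, so its sign was not the same in the 3 numbers. In the interferon list 5 of 30 intervals lay within 1 log2 unit, and in the chemokine list 3 of 14, against 51.3% of all tested genes. In the interferon list 10 of 30 genes were higher for the pooled tumor effect (1.63% of all tested genes). Its median tumor effect was 2.05 with myelin and 1.54 without. The list's median interaction was 0.06, −0.24 and 0.37 by number, so its sign was not the same in the 3 numbers. Its tumor effect was not seen in number 016 for Irf7, a regulator of interferon genes, which had 377, 385 and 16.4 CPM in Full Tumor, 398, 518 and 30.0 in Tumor without Myelin, 22.4, 19.0 and 14.5 in Myelin Alone, and 33.7, 29.4 and 36.4 in Control. The pooled tumor effect of Irf7 within the numbers was 3.77, 4.18 and −0.05. Ribosomal proteins (31 genes, median 0.05) and lysosome genes (20 genes, −0.04) had every interval within 1 log2 unit. Of all tested genes with at least 100 CPM in a group, 97.5% did. By number the ribosomal median was 0.65, −0.19 and −0.26, and the lysosomal one −0.15, 0.03 and −0.00. Lipid droplet and lipid-associated macrophage genes had a median of −0.02, with Gpnmb, a lysosomal glycoprotein, at −0.01 ± 0.13. Trem2, the lipid-sensing receptor, counted among the microglia-associated genes, was at −0.03 ± 0.12.

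Of the cell type lists, monocyte markers had a median of 1.00 (9 of 9 above 0, 0 intervals within 1) and neutrophil markers 1.17 (9 of 13 above, 0 within 1), with median standard errors of 1.25 and 1.72. Psap, the precursor of lipid-degrading activator proteins, had the smallest p of its list with an interaction of 1.05 ± 0.40, but it was 0.18, 0.30 and 2.60 by number and 0.27 without number 016.

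**Figure D5:**
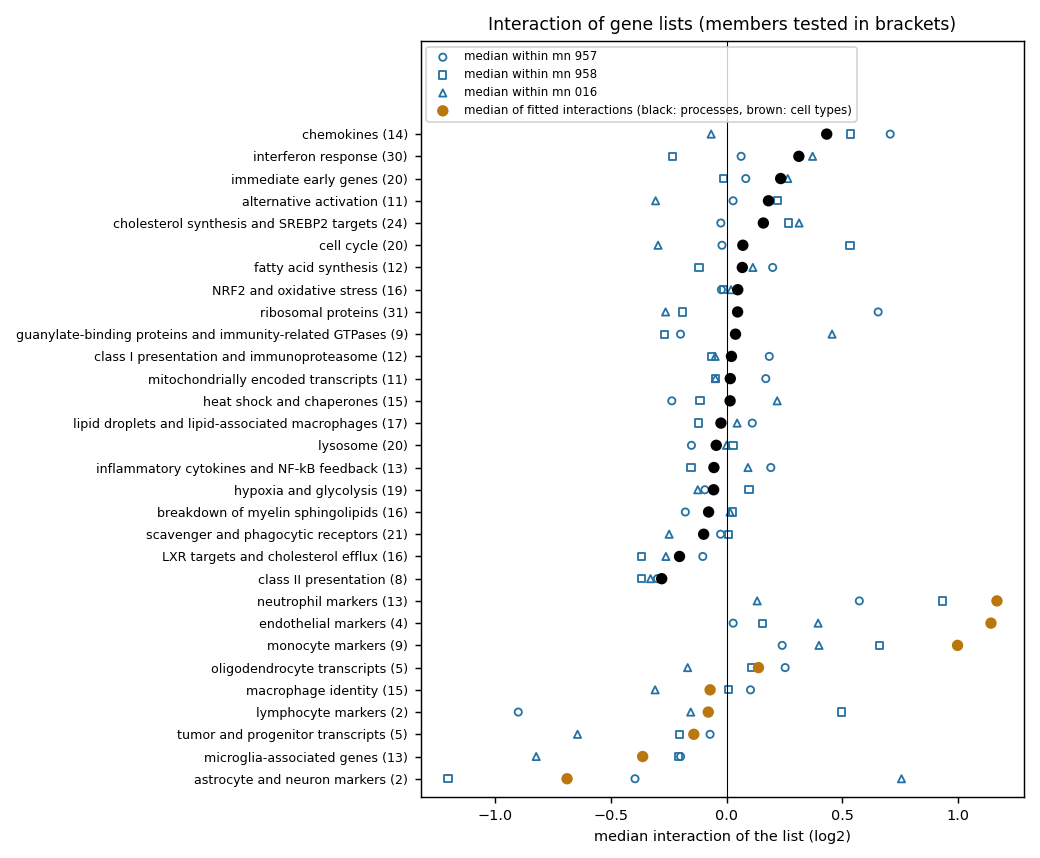
Median interaction (log2) of each gene list from the fit (filled; black for processes, brown for cell types) and within each mn number (open symbols). Most process lists sit within 0.25 of 0 (18 of 21), and 7 of the 30 lists have the same sign in all 3 numbers.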

How the data were processed

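The authors deposited raw counts per gene as whole numbers with no normalization, on mm10 per the submitters' processing notes; no source used here names the aligner, the counter or the strand setting, so overlapping and near-identical genes may share reads. CPM (library total times TMM factor), log2 effects and tests were computed here from those counts with edgeR 4.0.16 in R 4.3.3 (filterByExpr by group, TMM factors 0.965 to 1.06, glmQLFit and glmQLFTest). All 12 libraries entered 1 fit with group and mn number; two-sided p-values were adjusted with Benjamini-Hochberg over 13414 genes, with a threshold of 0.05. Standard errors are the absolute log2 effect over the square root of F, and 95% intervals use the t quantile on the fit's total degrees of freedom. Values within a number use log2(CPM + 1).

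The mn number pairs the libraries: deviations from group means correlated above 0.1 in 18 of 18 same-numbered pairs (0.145 to 0.771, across genes). No pair of replicates was a duplicate. A count of 0 allows up to 3 counts, or 0.138 to 0.176 CPM, for counting error alone, as no molecular identifiers were counted. Members, gene lists and rules were chosen with earlier results of these data known. Genes named are the 6 smallest interaction p in each direction with at least 10 CPM in a group and 1 sign in the 3 numbers, the 6 smallest p for each pooled effect, fixed genes, and the smallest interaction p in each process list; further genes called for the pooled myelin effect were also named. Some genes are not reported here. Mobp was picked after its values were seen. Alternatives were no block, other scalings and low-count filters, DESeq2 1.42.0, limma-voom (limma 3.58.1), libraries left out, the linear scale, and genes chosen in other numbers. The procedure was run on simulated data, but the outcome is not given here, so the power to call an interaction is not stated.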

Additional observations from a re-analysis of the deposited data

How the results depend on the processing

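The interaction called 0 genes under every alternative run, with or without the block, under either scaling and filter, with DESeq2 or limma-voom, and without each library or number in turn. Without the replicate block, 0 genes were called for the pooled myelin effect and 10 for the pooled tumor effect, against 15 and 302 with it. With no low-count filter the median absolute interaction was 0.575 (0.21 as reported), the pooled myelin count 48, and the correlations of the effects with and without the other stimulus 0.0134 (myelin) and 0.0653 (tumor material). With at least 5 CPM in at least 3 libraries these were 0.156, 30, 0.189 and 0.536, against 0.0554 and 0.201 over all tested genes. DESeq2 called 125 genes for pooled myelin and 613 for pooled tumor, and limma-voom called 30 for pooled myelin. Intervals within 0.5 in place of 1 were found for 2006 genes, and on the linear scale the median absolute departure was 0.171. Leaving out a library or a number gave a median absolute interaction of 0.238 to 0.284, 0 to 26 pooled myelin genes, 29 to 293 pooled tumor genes, signed myelin medians of −0.286 to −0.0903, and correlations of 0.00222 to 0.0807 (myelin) and 0.0906 to 0.204 (tumor). The pooled myelin count was 0 without number 957 or 958 and 26 without 016, and the pooled tumor count 29, 30 and 259. The signed tumor median stayed between −0.18 and −0.09. Genes and signs chosen in other numbers gave 0.0200 (957) and −0.28 (958) for myelin and −0.26 (957) and −0.0435 (958) for tumor material, and this check was added after the data were seen. Of the 66 named genes, 23 had an unadjusted p under 0.05, and 505 of their 505 alternative values on the log scale kept their direction. Over all 66 named genes, 1373 of 1447 values did. Some of the 23 were chosen for a small p and 1 sign in these same libraries. The alternatives share those libraries, so the kept direction is no independent support. Abca1 alone of the 23 changed sign on the linear scale (3.40 CPM above the sum). The cause of these shifts was not tested. Of genes below 10 CPM in every group, 2.52% had an interval within 1 log2 unit, and the part of depth in this was not tested.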

Other observations

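Mobp, a transcript of mature oligodendrocytes and a member of the oligodendrocyte list, was picked out after its values were seen. It had 0.614 to 0.913 CPM in Full Tumor and 0.442 to 0.527 in Myelin Alone, and 0 in all libraries of Tumor without Myelin and Control, where a count of 0 allows up to 0.176 CPM. No fold change is given, since both groups without myelin were at 0, and whether this RNA came with the myelin was not tested.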
